A study of Mus musculus with 6 samples.

Results

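Iron sensing and storage genes of the liver were followed here as a set of 10 genes: Hamp, Hamp2, Tfrc, Tfr2, Fth1, Ftl1, Bmp6, Hfe, Slc39a14 and Cp. Members were taken by gene symbol from the table of all pools, which holds 40481 genes, and all 10 were found and passed the filter on low counts, as did 17287 of the 41388 genes counted. Liver RNA was sequenced from mice on a C57BL/6 background that all carried floxed Mttp alleles and Villin Cre ERT2, a Cre recombinase switched on by tamoxifen in the epithelium of the intestine. Mttp-IKO mice received tamoxifen for 5 days and lost intestinal microsomal triglyceride transfer protein, which loads fat into chylomicrons. Control littermates, labelled wild type, received vehicle in its place. Diet deficient in methionine and choline (MCD), which causes steatohepatitis, began 3 weeks after injection at an age of 12 to 16 weeks. It was fed for 3 weeks, and livers were collected after a 4 h fast. The mice of this diet were male by the study's account. Each genotype was sequenced as 3 pools from 12 livers, with 3 to 4 mice in a pool, so pools vary less than single mice do. The deletion is intestinal, and the liver's own Mttp mRNA (128 to 185 CPM in 5 pools and 90.3 CPM in control pool 1) gives no check of it.

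The liver senses iron and sets how much of it enters the blood. Hepatocytes secrete hepcidin, encoded in the mouse by Hamp (the neighbouring Hamp2 encodes a similar peptide, with no action on iron ascribed to it here). Hepcidin removes the iron exporter ferroportin from the surface of gut cells and macrophages. Hepcidin is raised through BMP6, a ligand from the endothelial cells of the sinusoids, with HFE and transferrin receptor 2 as sensors of transferrin iron on the hepatocyte, and through interleukin 6 and STAT3 in inflammation. Iron inside the cell is stored in ferritin, a shell of heavy (Fth1) and light (Ftl1) chains, and iron regulatory proteins bind hairpins in ferritin and Tfrc mRNA when iron is scarce, blocking ferritin translation and protecting Tfrc mRNA from decay.

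The hairpins that iron regulatory proteins bind are shown first, because they set apart the members whose mRNA or translation is under direct iron control. Untranslated regions (UTRs) of 1 GENCODE M21 transcript per gene on GRCm38 were searched on the sense strand for CNNNNNCAGTGN, the bulged C and the loop of an iron-responsive element. Pairing of the stem was not tested, so a match to these letters is not by itself a hairpin. Fth1 and Ftl1 each had 1 match in the 5′ UTR, and Tfrc had 5 in the 3′ UTR. Capitals mark the loop, sequences run 5′ to 3′ along the mRNA, and each lies within 1 exon.
Fth1 5′ UTR, chr19:9982729-9982758, plus strand: ggtttcctgcttcaaCAGTGCttgaacgga
Ftl1 5′ UTR, chr7:45459781-45459810, minus strand: tgtgtcttgcttcaaCAGTGTttgaacgga
Tfrc 3′ UTR site 1, chr16:32631216-32631245, plus strand: gataattatcggaagCAGTGCcttccataa
Tfrc 3′ UTR site 2, chr16:32631595-32631624, plus strand: tcacattatcgggagCAGTGTcttccataa
Tfrc 3′ UTR site 4, chr16:32631660-32631689, plus strand: tgtctatatcggagaCAGTGAtctccatat
Tfrc 3′ UTR site 5, chr16:32631707-32631736, plus strand: cgtaattatcgggaaCAGTGTttcccataa
Site 3 of Tfrc overlapped site 4 and is not printed. Fth1 had 1 further match in its 3′ UTR, and the other 7 members had 0 in either UTR. The same letters occurred in the 5′ UTR of 8.26% and in the 3′ UTR of 31.3% of genes, whereas 4 or more matches in a 3′ UTR were found in 1.53%.

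The 2 hepcidin promoters are shown to set the BMP and STAT3 letters of Hamp beside those of Hamp2. Any link between promoter letters and the level of either gene was not tested. Windows of 140 bases ending at the start site of Hamp, and the aligned window of Hamp2, whose last 3 bases lie past its annotated start, came from RefSeq promoters on GRCm38.p6. Capitals mark GGCGCC, the core of the BMP response element (its counterpart in Hamp2 included), and TTCTTGGAA, the STAT3 site.
Hamp, chr7:30944030-30944169, minus strand: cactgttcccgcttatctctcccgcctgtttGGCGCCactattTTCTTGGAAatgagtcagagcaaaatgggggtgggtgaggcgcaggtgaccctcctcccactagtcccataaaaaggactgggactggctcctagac
Hamp2, chr7:30924179-30924318, minus strand: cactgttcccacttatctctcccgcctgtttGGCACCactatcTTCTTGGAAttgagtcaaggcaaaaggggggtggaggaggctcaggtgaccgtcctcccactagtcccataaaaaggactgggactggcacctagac
The windows were identical at 128 of 140 positions (91.4%). Of the 12 substitutions, G35A lay inside the BMP element (Hamp base, position from 1 at the 5′ end of the window, Hamp2 base), and both windows held the STAT3 letters. On either strand of the 300-base promoters of 27025 genes, the palindrome GGCGCC was found in 13.4% and TTCTTGGAA, or its reverse complement, in 0.488%. Of the 9 members with a promoter in the table, Hamp and Tfrc held the first and Hamp and Hamp2 the second.

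The pools held 25271585 to 36238734 reads on genes, and a count of 0 allows up to 0.119 CPM by counting error. Mttp-IKO pool 3 stood apart from the other 5 in its short RNAs. Small RNA genes took 0.633% of its reads against 3.59% to 5.27% elsewhere. Protein-coding genes of 300 to 600 nt differed in log2 CPM by a median of -1.66 between Mttp-IKO pool 3 and the mean of Mttp-IKO pools 1 and 2, those of 1000 to 2000 nt by -0.48, and those of 4000 to 8000 nt by 0.13. Hamp (392 nt), Hamp2 (437 nt), Fth1 (866 nt) and Ftl1 (1340 nt) are the short members, and their results are given with and without that pool. CPM values below are counts relative to library size after scaling by TMM (the trimmed mean of M values), fold changes are Mttp-IKO against control, and adjusted p-values are from edgeR's quasi-likelihood test over all genes tested. Albumin (Alb), the defining product of hepatocytes, was at 40088 to 132094 CPM, as the tissue label requires.

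Across the 10 genes, 1 was higher in Mttp-IKO livers at an adjusted p under 0.05 (Tfr2) and 0 were lower, where 4.01% of all genes tested passed, 0.920% higher and 3.09% lower. At an unadjusted p under 0.05 there were 4 members, beside 23.0% of all genes, and DESeq2, which called 1995 genes to edgeR's 694, called 4 members (Tfr2, Slc39a14 and Cp higher and Ftl1 lower). For 6 of the 10 there was no overlap between genotypes, with Tfrc, Tfr2, Slc39a14 and Cp higher and Fth1 and Ftl1 lower, where 31.0% of all genes did not overlap (14.6% higher and 16.5% lower). The median log2 fold change was 0.11 over the members and 0.01 over all genes. The plot of the 10 genes by pool shows these levels.

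**Figure D1:**
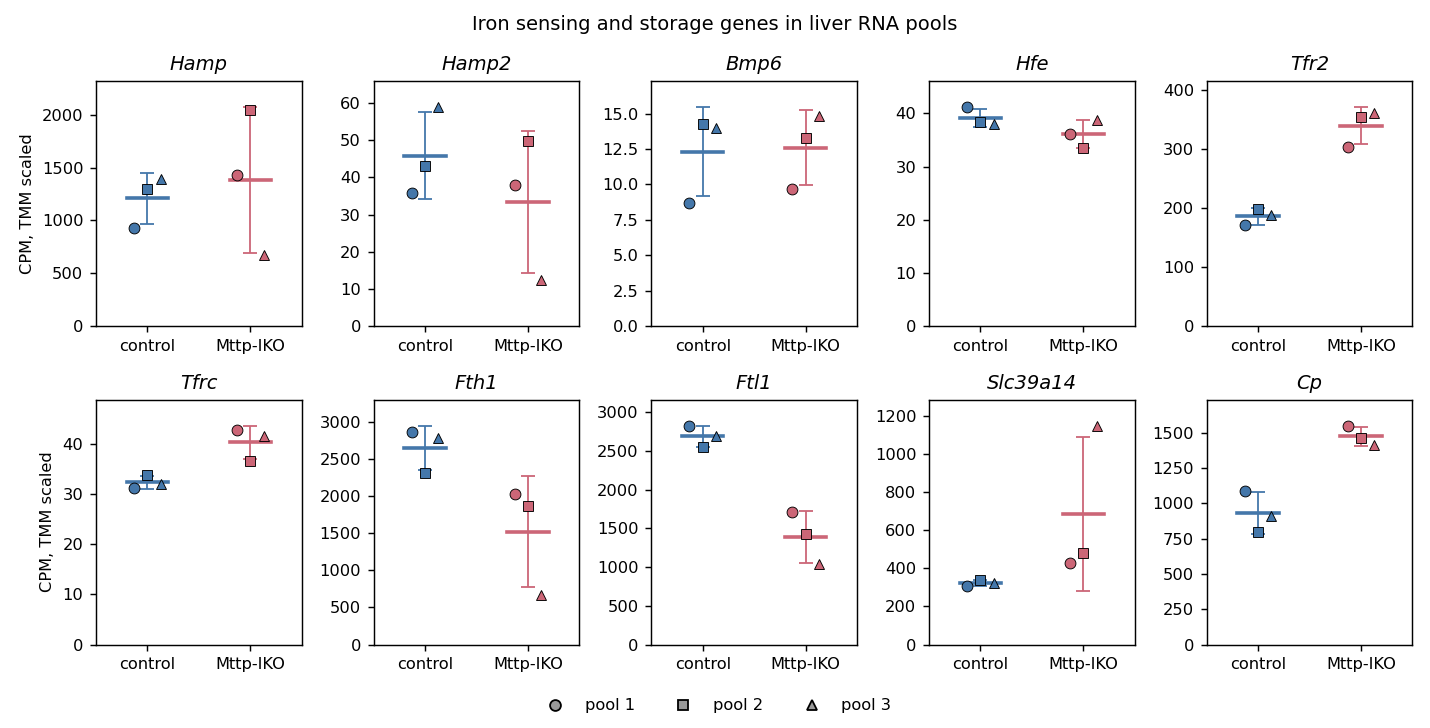
CPM (TMM scaled, linear axes from 0) of the 10 genes in each liver RNA pool of control and Mttp-IKO mice, with the mean (bar) and SD (whisker) of 3 pools and a symbol per pool number. Tfr2, Tfrc, Slc39a14 and Cp lie higher and Fth1 and Ftl1 lower in all 3 Mttp-IKO pools, and Mttp-IKO pool 3 is the lowest pool for Hamp, Hamp2, Fth1 and Ftl1 and the highest for Slc39a14.

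Tfr2 encodes transferrin receptor 2, the hepatocyte protein that binds iron-loaded transferrin and raises hepcidin (ENSMUSG00000029716, chr5:137569851-137587481, plus strand). Its level was 171, 199 and 188 CPM in control pools 1 to 3 and 304, 354 and 362 CPM in Mttp-IKO pools 1 to 3. Every Mttp-IKO pool was above every control pool, by a margin wider than the spread within either genotype. The rise was 1.83-fold (log2 fold change 0.87, standard error 0.165, 95% interval 0.49 to 1.25, edgeR adjusted p = 0.0340). With the replicate number as a block, Tfr2 missed the threshold of 0.05 by edgeR. The log2 fold change kept between 0.79 and 0.94 when each pool was left out, but the adjusted p of edgeR then passed 0.05 in 5 of 6 cases: 0.158, 0.0540 and 0.162 without control pools 1, 2 and 3, 0.0617 and 0.130 without Mttp-IKO pools 1 and 2, and 0.0265 without Mttp-IKO pool 3. Tfr2 is a hepatocyte gene, and markers of hepatocytes also had a higher summed level in Mttp-IKO pools (124052 to 172072 CPM) than in control pools (63470 to 97211 CPM). Of the 8 markers 0 passed the threshold, 5 lay higher and 1 lower without overlap (14.6% and 16.5% of all genes), and none was at 0. Alb (84692 to 132094 against 40088 to 68931 CPM), Apob and Apoa1 were the most abundant, and Alb was the largest part of each sum. Apoa1 overlapped between genotypes (6114 to 14200 against 4856 to 6890 CPM). Ttr was the marker that lay lower (1464 to 2737 against 2805 to 3823 CPM). The part of hepatocyte content in the Tfr2 result was not tested.

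The other 2 sensors stayed closer to control. Tfrc encodes transferrin receptor 1, which takes up transferrin-bound iron (ENSMUSG00000022797, chr16:32608920-32632794, plus strand). It was at 31.2, 33.8 and 32.1 CPM in control pools against 42.8, 36.6 and 41.6 CPM in Mttp-IKO pools. The genotypes did not overlap, yet the difference missed the threshold (log2 fold change 0.32, standard error 0.138, edgeR adjusted p = 0.218). Markers of erythroid cells, which are rich in Tfrc, overlapped between genotypes, at 298 to 441 CPM summed in control pools and 224 to 380 CPM in Mttp-IKO pools, with 0 of the 5 tested past the threshold. Hfe encodes the hemochromatosis protein that partners both transferrin receptors (ENSMUSG00000006611, chr13:23702034-23710854, minus strand). Its pools overlapped, at 41.1, 38.3 and 38.0 CPM in control and 36.1, 33.4 and 38.8 CPM in Mttp-IKO livers (log2 fold change -0.12, standard error 0.136, 95% interval -0.43 to 0.19, edgeR adjusted p = 0.641).

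Bmp6, the iron-induced ligand that drives hepcidin (ENSMUSG00000039004, chr13:38345716-38499728, plus strand), was the least abundant member by CPM. It was at 8.69, 14.3 and 14.0 CPM in control pools against 9.66, 13.3 and 14.8 CPM in Mttp-IKO pools, that is 300 to 515 reads. Pool 1 was the lowest of each genotype and the groups overlapped over most of their range. No difference was detected (log2 fold change 0.03, standard error 0.250, 95% interval -0.55 to 0.61, edgeR adjusted p = 0.956), and the sign turned under total-count scaling (log2 fold change -0.14) and without control pool 1 (-0.19), Mttp-IKO pool 2 (-0.0087) or Mttp-IKO pool 3 (-0.10). Bmp6 shares 224 exonic bases with Txndc5 on the opposite strand, and reads there cannot be assigned without the strand, whose use in counting is not given in the sources used here. The same holds for 108 bases that Cp shares with Hps3, 89 that Hamp2 shares with a long noncoding RNA (Gm44662) and 355 that Ftl1 shares with Gm10252. Markers of sinusoidal endothelial cells, the main source of Bmp6, summed to 615 to 659 CPM in control pools against 520 to 589 CPM in Mttp-IKO pools. Of these 8 markers 0 passed the threshold, 1 lay higher and 2 lower without overlap (14.6% and 16.5% of all genes), and none was at 0. The most abundant of these markers were Stab1, Stab2 and Cdh5, with Stab1 at 181 to 249 CPM in control and 131 to 170 CPM in Mttp-IKO pools, Stab2 overlapping at 117 to 184 and 150 to 179 CPM, and Cdh5 at 65.0 to 72.5 and 60.2 to 61.0 CPM.

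Neither hepcidin mRNA differed between genotypes by more than the spread between pools, and Mttp-IKO pool 3 was the lowest pool for both. Hamp (ENSMUSG00000050440, chr7:30942371-30944017, minus strand) was at 928, 1301 and 1392 CPM in control pools against 1426, 2046 and 669 CPM in Mttp-IKO pools. Mttp-IKO pool 2 was the highest of all and Mttp-IKO pool 3 the lowest, so the control pools lay between them. The genotypes did not differ detectably (log2 fold change 0.19, standard error 0.384, 95% interval -0.69 to 1.08, edgeR adjusted p = 0.801). Without Mttp-IKO pool 3 the log2 fold change was 0.53 (edgeR adjusted p = 0.209), and without Mttp-IKO pool 2 it was -0.20 (adjusted p = 0.792).

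Hamp2 (ENSMUSG00000056978, chr7:30922372-30924181, minus strand) encodes a hepcidin close in sequence to that of Hamp. It was at 35.8, 43.0 and 58.9 CPM in control pools against 38.0, 49.8 and 12.4 CPM in Mttp-IKO pools. Only Mttp-IKO pool 3 left the control range (log2 fold change -0.46, standard error 0.441, edgeR adjusted p = 0.575), and without it the log2 fold change was -0.06. Set against the mean of Mttp-IKO pools 1 and 2, the log2 CPM of pool 3 differed by -1.35 (Hamp) and -1.80 (Hamp2), and the median protein-coding gene of a length within 20% of either differed there by -1.83. Neither drop was larger than that median, and the part of mRNA length in the hepcidin values of that pool was not tested.

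**Figure D2:**
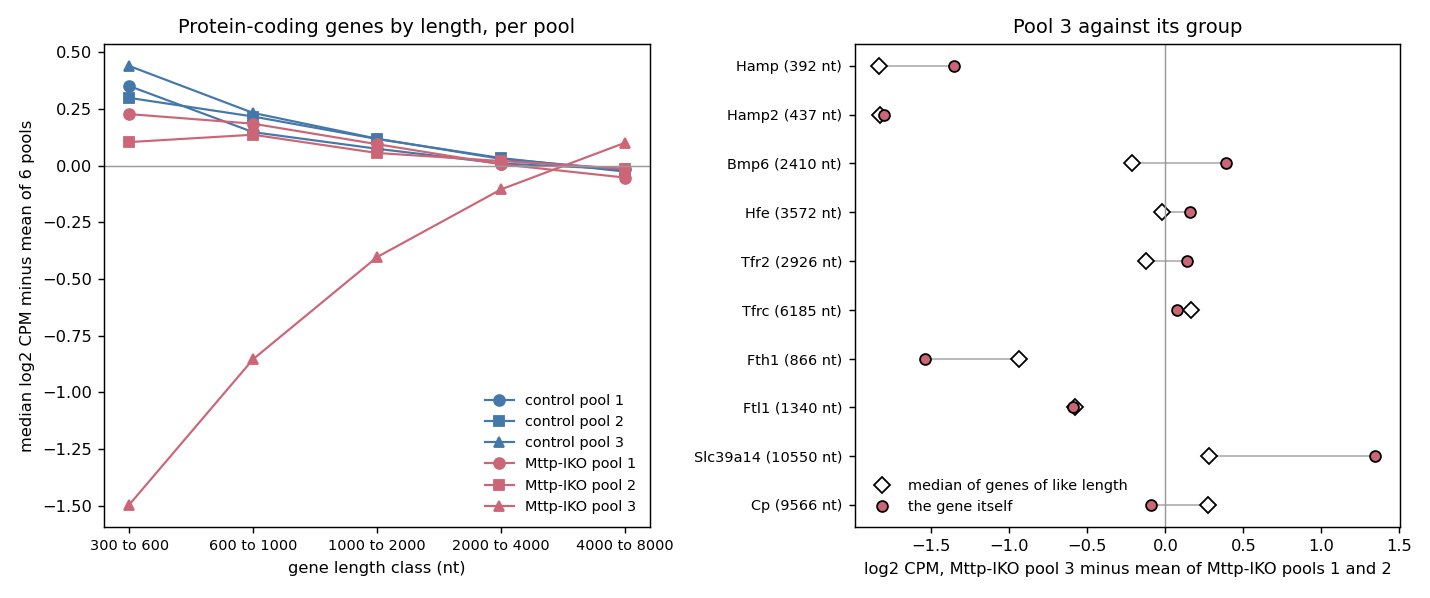
Left, median log2 CPM of protein-coding genes minus their mean over 6 pools, by gene length class (nt) and pool. Right, log2 CPM of Mttp-IKO pool 3 minus the mean of Mttp-IKO pools 1 and 2 for each gene (circle) and the median of protein-coding genes within 20% of its length (diamond). The shortest class lies at -1.50 in Mttp-IKO pool 3 and between 0.10 and 0.44 in the other pools, and Fth1 and Slc39a14 lie farther from their length class than Hamp2 and Ftl1 do.

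The share of Hamp2 among hepcidin reads separated the genotypes. Hamp2 gave 3.71%, 3.20% and 4.06% of the reads of both genes in control pools and 2.59%, 2.38% and 1.83% in Mttp-IKO pools. All 3 Mttp-IKO pools were below all 3 control pools, with means of 3.66% ± 0.431 and 2.27% ± 0.396 (SD, n = 3 pools each). The difference of -1.39 percentage points had an exact permutation p of 0.1 (two-sided), the smallest that 3 pools against 3 can give, and it lay between -1.62 and -1.17 when each pool was left out. The Hamp and Hamp2 transcripts are 94.6% identical (388 of 410 aligned bases), 60 of 361 windows of 50 bases of Hamp recur in Hamp2, and 0 of 311 windows of 100 bases do. Only reads placed at 1 position were counted, so part of the shared sequence may be uncounted in both, and the read length is not given in the sources used here.

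**Figure D3:**
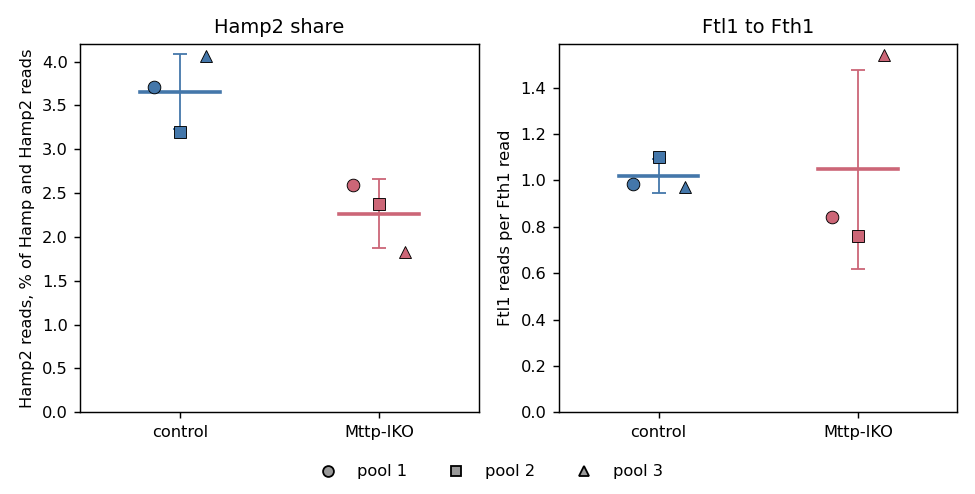
Left, Hamp2 reads as a percentage of Hamp and Hamp2 reads. Right, Ftl1 reads per Fth1 read, for each pool of control and Mttp-IKO mice (symbols) with the mean (bar) and SD (whisker) of 3 pools. The Hamp2 share lies at 3.20% to 4.06% in control and 1.83% to 2.59% in Mttp-IKO pools, while the ferritin ratio of 1.54 in Mttp-IKO pool 3 is the highest of the 6.

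Both ferritin chains were less abundant in every Mttp-IKO pool. Ftl1, the light chain that aids iron mineral formation (ENSMUSG00000050708, chr7:45457944-45459884, minus strand), was at 2821, 2549 and 2699 CPM in control pools against 1712, 1422 and 1034 CPM in Mttp-IKO pools. The genotypes lay far apart for this gene, with the nearest pools at 2549 and 1712 CPM. The level was 1.94-fold lower than in control livers, but the test missed the threshold (log2 fold change -0.95, standard error 0.236, 95% interval -1.50 to -0.41, edgeR adjusted p = 0.0658). Without Mttp-IKO pool 3 the log2 fold change was -0.78, and the test then passed (standard error 0.154, edgeR adjusted p = 0.0433). That fit called 864 genes, against 694 with all pools. Without any other single pool Ftl1 missed the threshold, with an edgeR adjusted p of up to 0.229. With each pool's trend with gene length removed the log2 fold change was -0.78 (adjusted p = 0.0533), a fit in which the median of all genes stood at 0.12.

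Fth1, the heavy chain that oxidizes iron for storage (ENSMUSG00000024661, chr19:9982703-9985092, plus strand), was at 2864, 2315 and 2780 CPM in control pools against 2030, 1869 and 671 CPM in Mttp-IKO pools. The 2 groups did not overlap, and Mttp-IKO pool 3 fell well below both the others. The difference missed the threshold (log2 fold change -0.80, standard error 0.389, edgeR adjusted p = 0.265), and without Mttp-IKO pool 3 it was -0.44 (adjusted p = 0.141). Against Mttp-IKO pools 1 and 2, the log2 CPM of Fth1 differed in that pool by -1.54 and that of genes of like length by -0.94, whereas the difference of Ftl1 (-0.59) was near that of its length class (-0.58). Reads of Ftl1 per read of Fth1 were 0.985, 1.10 and 0.971 in control pools and 0.843, 0.761 and 1.54 in Mttp-IKO pools. The mean ratio was 1.02 ± 0.0715 in control and 1.05 ± 0.429 in Mttp-IKO pools (SD, n = 3 pools each, exact permutation p = 1, two-sided), and without Mttp-IKO pool 3 the difference was -0.22.

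Macrophages hold much ferritin, and markers of recruited macrophages were lower in Mttp-IKO livers beside these results. The 7 markers summed to 257 to 811 CPM in control pools against 95.5 to 170 CPM in Mttp-IKO pools. Of the 7, 5 passed the threshold and 6 did not overlap, all lower (3.09% and 16.5% of all genes), and none was at 0. Gpnmb (173 to 592 against 30.7 to 105 CPM), Spp1 (39.2 to 148 against 26.7 to 53.2 CPM) and Itgax (18.1 to 52.6 against 3.28 to 7.81 CPM) were the most abundant. The summed level of stellate cell markers was also lower, at 621 to 750 CPM in control and 421 to 479 CPM in Mttp-IKO pools. Of these 6 markers 2 passed the threshold and 3 did not overlap, all lower (3.09% and 16.5% of all genes). Reln, Dcn and Lrat were the most abundant, and of these Reln and Dcn overlapped between genotypes. The summed level of B and T cell markers was lower too, at 7.28 to 11.8 and 3.31 to 6.05 CPM. Of the 8 tested, 0 passed the threshold and 3 lay lower without overlap (16.5% of all genes). Summed markers of resident Kupffer cells overlapped, at 298 to 435 CPM in control and 227 to 562 CPM in Mttp-IKO pools, as did those of neutrophils and cholangiocytes. Of the 6 Kupffer cell markers 1 passed the threshold, Timd4 (named after its values were seen), at 4.43 to 5.21 CPM in control and 8.21 to 14.2 CPM in Mttp-IKO livers (log2 fold change 1.16, edgeR adjusted p = 0.0425). Of the control pools, pool 2 had the lowest macrophage markers, Ftl1 and Fth1. Of the Mttp-IKO pools, pool 1 had the lowest macrophage markers (95.5 CPM) and the highest Ftl1 and Fth1. That second order includes Mttp-IKO pool 3, in which mRNAs as short as these were low, and orders within 3 pools were not tested. In bulk liver, fewer cells of a type and less RNA per cell cannot be told apart, and the part of macrophage content in the ferritin result was not tested. Reads shared with ferritin copies were not counted, and the copy Ftl1-ps1, with 336 to 414 reads in control and 132 to 183 in Mttp-IKO pools, may hold some reads of Ftl1.

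Both transport members were higher in Mttp-IKO livers, without passing the threshold. Slc39a14 encodes ZIP14, through which hepatocytes take up iron that is not bound to transferrin (ENSMUSG00000022094, chr14:70303469-70351425, minus strand). It was at 309, 338 and 323 CPM in control pools against 427, 479 and 1149 CPM in Mttp-IKO pools. Mttp-IKO pools 1 and 2 lay just above the control pools and Mttp-IKO pool 3 far above both. The mean level was 2.12-fold higher (log2 fold change 1.08, standard error 0.369, edgeR adjusted p = 0.137), and without Mttp-IKO pool 3 the log2 fold change was 0.49 (standard error 0.123, adjusted p = 0.0705). Long genes were only slightly favoured in that pool, by 0.28 on the log2 scale for lengths within 20% of Slc39a14, against 1.35 for Slc39a14 itself.

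Cp encodes ceruloplasmin, the copper-dependent plasma enzyme that oxidizes exported iron (ENSMUSG00000003617, chr3:19957054-20009145, plus strand). It was at 1085, 797 and 910 CPM in control pools against 1548, 1462 and 1413 CPM in Mttp-IKO pools. The 3 Mttp-IKO pools lay close together and above all control pools, and Mttp-IKO pool 3 did not stand out. The level was 1.58-fold higher (log2 fold change 0.66, standard error 0.196, 95% interval 0.21 to 1.11, edgeR adjusted p = 0.0984). Without control pool 2, the lowest pool, or any other single pool, the log2 fold change stayed between 0.54 and 0.77.

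**Figure D4:**
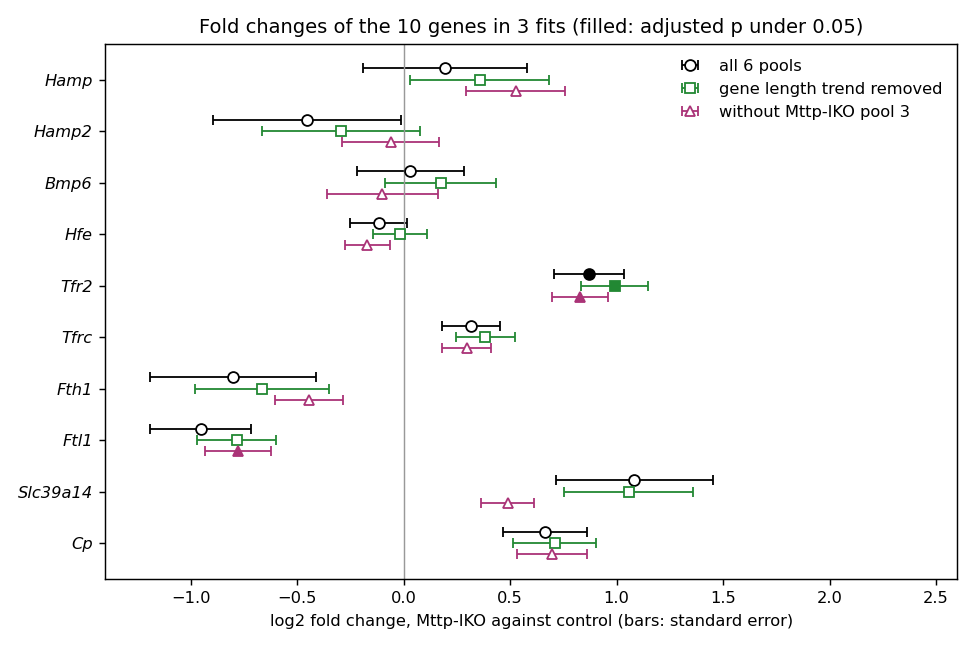
Log2 fold change (Mttp-IKO against control) with its standard error for the 10 genes from all 6 pools (circles), with each pool's trend with gene length removed (squares) and without Mttp-IKO pool 3 (triangles). Filled symbols mark an adjusted p under 0.05, reached by Tfr2 in all 3 fits and by Ftl1 without Mttp-IKO pool 3.

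Per kilobase of gene length, on TMM-scaled RPKM, the members of control livers spanned from ferritin and hepcidin to the receptor Tfrc and the ligand Bmp6. Hamp (2367 to 3552 RPKM) and Fth1 (2673 to 3307 RPKM) overlapped at the top. Ftl1 followed at 1902 to 2105 RPKM. Hamp2 (81.8 to 135 RPKM) and Cp (83.3 to 113 RPKM) also overlapped. Tfr2 (mean 63.5 ± 4.85 RPKM, SD, n = 3 pools), Slc39a14 (30.7 ± 1.33 RPKM) and Hfe (10.6 to 11.5 RPKM) each stood apart from its neighbours. Tfrc (5.05 to 5.47 RPKM) could not be told from Bmp6 (3.61 to 5.92 RPKM). In Mttp-IKO livers Hamp spread from 1706 to 5219 RPKM over Fth1 (775 to 2344 RPKM), while Cp (148 to 162 RPKM) lay above Hamp2 (28.5 to 114 RPKM), and Tfr2 (104 to 124 RPKM) overlapped Hamp2. This order depends on the gene lengths, which were deposited by the authors and differ from those of the GENCODE M21 transcripts for 8 members, in both directions. On transcript lengths, a scale added after the data were seen, Ftl1 (2633 to 2914 RPKM, 968 bases for 1340 nt) overlapped Hamp and lay above Fth1 (1550 to 1917 RPKM, 1494 bases for 866 nt). Cp (175 to 238 RPKM) then lay above Hamp2, Slc39a14 (62.8 to 68.5 RPKM) overlapped Tfr2, and Tfrc (6.39 to 6.92 RPKM) lay above Bmp6 (2.42 to 3.97 RPKM). Reads were counted over the deposited gene models, so counts and lengths on this scale do not cover the same bases. For Fth1 the counted gene starts at chr19:9982703, while base 655 of the transcript lies at chr19:9982729. Most earlier bases of that transcript were therefore not counted, and these changes of order show only a dependence on the length used.

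Beside the members, 98 genes in 7 lists of iron pathways were followed, of which 93 could be tested. None passed the threshold by edgeR, where 4.01% of all genes did. At an unadjusted p under 0.05 there were 17 (18.3%, against 23.0% of all genes), DESeq2 called 7 and limma-voom 0, and the pools did not overlap for 26 (28.0%, against 31.0%). The median log2 fold change was 0.02. Counts without overlap in each list below stand beside 14.6% of all genes higher and 16.5% lower. The 7 called by DESeq2, of which 5 (Scara5, Cd163, Il6ra, Epas1 and Slc11a1) are named because of that result, are described within their lists.

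In the BMP and SMAD pathway, which carries the iron signal to the Hamp promoter, 22 genes were tested with a median log2 fold change of 0.16, and 2 lay higher and 4 lower without overlap. The targets that report BMP activity gave no call. Id1 had a log2 fold change of 0.02 (edgeR adjusted p = 0.979), the repressor Smad7 -0.07 (0.844), the repressor Smad6 -0.35 (0.277) and the transcription factor Atoh8 0.16 (0.638). Smad6 was at 25.6 to 27.8 CPM in control and 16.9 to 25.1 CPM in Mttp-IKO pools, just without overlap. Bmp2, a second endothelial ligand, had a log2 fold change of 0.26 (adjusted p = 0.533). The co-receptor Hjv (hemojuvelin, listed as Hfe2) was at -0.19 (0.533), and Tmprss6, the protease that cleaves it, at 0.24 (0.465).

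In the arm of interleukin 6 and STAT3, 7 of 8 genes were tested, and the cytokine gene Il6 was itself too low at 0 to 0.0644 CPM. The receptor Il6ra was at 71.1, 112 and 85.3 CPM in control pools against 137, 177 and 209 CPM in Mttp-IKO livers (log2 fold change 0.96, edgeR adjusted p = 0.0609). Stat3 lay at 178, 139 and 141 CPM in control pools against 216, 186 and 327 CPM in Mttp-IKO livers (log2 fold change 0.67, adjusted p = 0.154). Both were without overlap, and Mttp-IKO pool 3 was the highest for each. Socs3, a target of STAT3, overlapped, at 20.7 to 29.3 CPM in 5 pools and 64.8 CPM in Mttp-IKO pool 3 (log2 fold change 0.65, adjusted p = 0.310). That pool thus had the highest Stat3 (9527 nt), Socs3 (2891 nt) and Slc39a14 (10550 nt) of the 6, beside its low level of short mRNAs. Other listed genes of inflammation, named after their values were seen, went the other way in that pool. Il1b (1907 nt) was its lowest of the 6 pools at 1.13 CPM, which is 27 reads. Lcn2 (2302 nt) was at 244 CPM against 891 and 1000 CPM in Mttp-IKO pools 1 and 2. That value lay within the control range of Lcn2, 194 to 985 CPM. A shared control of these genes was not tested.

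Of 17 tested genes of iron uptake, export and carriage, 3 lay higher and 2 lower without overlap. Slc40a1, the exporter ferroportin, overlapped at 153 to 223 CPM in control and 120 to 159 CPM in Mttp-IKO livers (log2 fold change -0.41, edgeR adjusted p = 0.261). The importer Slc11a2 (DMT1) had a log2 fold change of -0.47 (0.198). Its 3′ UTR held 2 matches to the searched letters, which 31.3% of genes hold there, and stem pairing was not tested. Transferrin (Trf) was at 765 to 774 CPM in control pools against 568 to 840 CPM in Mttp-IKO livers (log2 fold change -0.08, adjusted p = 0.854). Hemopexin (Hpx), which carries heme, was at -0.29 (0.486), and the ferrireductase Steap3 at -0.35 (0.393). Scara5, a ferritin receptor, had 34.4 to 39.0 CPM in control and 56.1 to 57.3 CPM in Mttp-IKO livers (log2 fold change 0.60, adjusted p = 0.0502), closest of the pathway genes to the threshold. Cd163, the macrophage receptor for hemoglobin bound to haptoglobin, had 18.9 to 39.2 CPM in control and 48.4 to 86.8 CPM in Mttp-IKO livers (log2 fold change 1.34, adjusted p = 0.0560). Slc11a1, which moves metal out of phagosomes, went the other way, at 29.9 to 73.7 and 23.7 to 27.9 CPM (log2 fold change -1.07, adjusted p = 0.0878). Cd163 and Slc11a1, both genes of macrophages, had fold changes of opposite sign.

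Among 11 tested genes of iron regulation and ferritin turnover, 4 lay higher and 0 lower without overlap (14.6% and 16.5% of all genes). The iron regulatory proteins Aco1 and Ireb2 had log2 fold changes of 0.14 (edgeR adjusted p = 0.617) and 0.45 (0.294). Ncoa4, the receptor that delivers ferritin to the lysosome, was at 91.2, 97.4 and 94.4 CPM in control pools against 118, 152 and 134 CPM in Mttp-IKO livers (log2 fold change 0.51, adjusted p = 0.108). Epas1, which encodes HIF-2 alpha and has 1 match to the searched letters in its 5′ UTR, was at 272 to 353 CPM in control and 475 to 772 CPM in Mttp-IKO pools, and missed the threshold (log2 fold change 0.96, adjusted p = 0.0619). Of 6 tested genes of copper supply and ferroxidases, 3 lay lower without overlap (16.5% of all genes). Heph, the ferroxidase of the gut, was low, at 2.85 to 3.37 CPM in control and 1.38 to 1.92 CPM in Mttp-IKO livers (log2 fold change -0.93, adjusted p = 0.0868). Atp7b, which loads copper onto ceruloplasmin, was at -0.09 (0.762) while Cp was at 0.66.

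**Figure D5:**
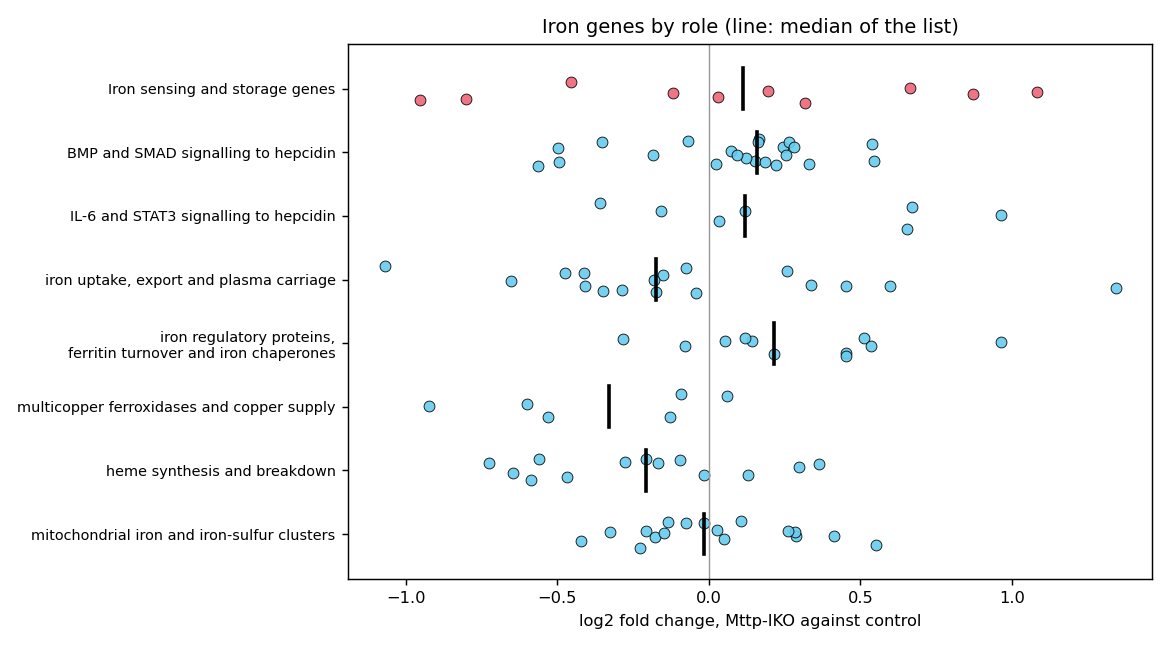
Log2 fold change (Mttp-IKO against control) of the 10 members (red) and the 93 tested genes of 7 iron pathway lists (blue), 1 point per gene with the median of each list as a line; vertical scatter within a list is for display. The list medians lie between -0.33 and 0.22, and the members spread from -0.95 to 1.08.

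The genes nearest in pattern to Hamp and to Tfrc were found by the mean absolute difference of log2 CPM, centred on each gene's mean, over the 6 pools, among 9240 genes. Nearest to Hamp were Apoc3 (0.0691), Rrm2 (0.0728), Fuom (0.103), Ttc36 (0.121) and Denr (0.132). For Tfrc they were Vapa (0.0245), Josd1 (0.0286), Klhdc10 (0.0320), Sec23ip (0.0348) and Gigyf2 (0.0369).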

How the data were processed

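Liver RNA pools (3 per genotype) were prepared as KAPA RiboErase libraries, and the authors aligned reads to GRCm38 with STAR 2.5.1a. Per gene, reads with 1 unambiguous position were then counted by featureCounts 1.4.6-p5. The deposited read counts were not normalized, and the authors also deposited CPM (relative to the reads on genes) and RPKM (CPM per kilobase of gene length), both of which follow from the counts. Only the counts and gene lengths were used. The table of all pools repeated 276 lines, which were dropped. Totals of 25271585 to 36238734 reads set the precision; floors cover counting error only.

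Genes were kept by filterByExpr (minimum count 10, minimum total 15), scaled by TMM (factors 0.899 to 1.11) and tested between genotypes in R 4.3.3 with the quasi-likelihood functions glmQLFit and glmQLFTest of edgeR 4.0.16. P-values were adjusted over 17287 genes by Benjamini-Hochberg, with a threshold of 0.05. The sources used here state no differential expression test. Groups and replicate numbers came from the labels. No pair of pools agreed within sampling noise. Single ratios were compared by exact permutation. On simulated counts with 200 changed genes among 16995, edgeR called 100 of 100 changed 4-fold and 96 of 100 changed 2-fold, with 17 unchanged genes called. Every simulated gene had the same fixed dispersion, and no simulated pool had a trend with gene length. These shares therefore do not give the power of the test in the real pools. Alternatives were scaling by total counts, upper quartile or DESeq2 size factors, the Wald test of DESeq2 1.42.0, limma-voom (limma 3.58.1), other filters, protein-coding genes only, removal of each pool's loess trend with gene length (span 0.3), the replicate number as a block, and leaving out each pool.

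Members and gene lists were chosen with earlier results of these data known. Named genes are all members, pathway genes picked for their role, any pathway gene past the threshold (none was), up to 3 abundant markers of cell types whose summed level did not overlap, and the 5 genes nearest in pattern to Hamp and to Tfrc at an average log2 CPM of at least 3; others are named where they were chosen after their values were seen. UTRs were read from GENCODE M21 and promoters from RefSeq. Figures were drawn with matplotlib.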

Additional observations from a re-analysis of the deposited data

How the results depend on the processing

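The direction of the other 8 members was the same in all 17 alternatives, with log2 fold changes of 0.69 to 0.99 for Tfr2, -1.13 to -0.78 for Ftl1, -1.06 to -0.44 for Fth1, 0.49 to 1.33 for Slc39a14 and 0.48 to 0.77 for Cp, whereas those of Hamp (-0.20 to 0.53) and Bmp6 (-0.19 to 0.19) turned. On leaving out each pool, calls ranged from 0 to 892 genes, 0 to 2 members and 0 to 4 pathway genes, and log2 fold changes from 0.79 to 0.94 (Tfr2), -1.13 to -0.78 (Ftl1), -0.20 to 0.53 (Hamp), -0.19 to 0.19 (Bmp6), -0.29 to 0.38 (Id1), -0.22 to 0.019 (Smad7), -0.19 to 0.078 (Trf), -0.034 to 0.27 (Atoh8) and -0.16 to 0.019 (Atp7b). Without Mttp-IKO pool 2 edgeR called 0 genes (3221 at an unadjusted p under 0.05), and without control pools 1 and 3 or Mttp-IKO pool 1 it called 24, 21 and 55, while without control pool 2 or Mttp-IKO pool 3 it called 892 and 864. DESeq2 called 1995 genes (657 higher and 1338 lower, against 159 and 535 by edgeR), 4 members and 7 pathway genes, with Ftl1 at -0.94, Slc39a14 at 1.10 and Cp at 0.68 on the log2 scale (adjusted p = 0.00139, 0.0306 and 0.00704). limma-voom called 428 genes, with Id1 at -0.12. Total counts moved the median of all genes to -0.17 and gave 113 genes higher and 902 lower, 2 members and 1 pathway gene, with Ftl1 at -1.13 (edgeR adjusted p = 0.0368), Bmp6 at -0.14, Id1 at -0.16, Atoh8 at -0.017 and Aco1 at -0.038. Removal of the length trend moved that median to 0.12 and gave 353 genes higher and 508 lower and 4 pathway genes, with Smad7 at 0.016 and Trf at 0.029. DESeq2 size factors and a filter at an average CPM of 1 each gave 1 pathway gene, protein-coding genes alone 2, and every gene with a read 4. The cause of these changes was not tested.

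Whether the replicate numbers pair the pools was not settled. Deviations of same-numbered pools from their group means correlated at only 0.14, 0.11 and 0.01. Even so, 5 of 6 pools correlated best with their own number. With the replicate number as a block, Tfr2 was at 0.87 (edgeR adjusted p = 0.0516), 0 members passed (5 at an unadjusted p under 0.05) and Id1 was at -0.094. With the block and the length trend removed, 4 pathway genes passed, and Smad7 and Trf were at 0.012 and 0.011. Depth limited only the lowest genes, such as Il6.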

Other observations

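Heme and mitochondrial iron genes, which draw on the same iron, gave no call with all 6 pools. Of 13 tested genes of heme synthesis and breakdown, 1 lay higher and 1 lower without overlap and the median log2 fold change was -0.21. Alas1, the rate-limiting enzyme of hepatic heme synthesis, was at 810, 890 and 991 CPM in control pools against 465, 831 and 922 CPM in Mttp-IKO livers (log2 fold change -0.28, edgeR adjusted p = 0.577). The genotypes overlapped, with Mttp-IKO pool 1 the lowest. Alas2, the erythroid form, was named after its values were seen. It was at 31.2, 31.3 and 31.7 CPM in control pools against 13.9, 12.8 and 33.6 CPM in Mttp-IKO livers (log2 fold change -0.65, edgeR adjusted p = 0.309), and its 5′ UTR held 1 match to the searched letters. Without Mttp-IKO pool 3, the highest of the 6, its log2 fold change was -1.23 (edgeR adjusted p = 0.00943).

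Of 17 tested genes of mitochondrial iron and iron-sulfur cluster assembly, 3 lay higher and 1 lower without overlap, with a median log2 fold change of -0.02. Slc25a37 (mitoferrin 1), which imports iron into mitochondria, was at 47.1, 45.4 and 41.8 CPM in control pools against 56.4, 38.5 and 69.1 CPM in Mttp-IKO livers (log2 fold change 0.29, edgeR adjusted p = 0.464). Mttp-IKO pools 2 and 3 were the lowest and the highest of the 6 for this gene.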
